A study of Mus musculus with 24 samples.

Results

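The microRNAs described here are those named miR-297, miR-466, miR-467 and miR-669, the names of a repeated hairpin cluster that lies inside the mouse gene Sfmbt2. Members were all mouse microRNAs with 1 of these 4 numbers, whatever the letter or arm. They came to 20 of the 1821 microRNAs in the small RNA table, which holds 690 known and 1131 predicted microRNAs. There were 2 members named miR-297, 6 named miR-466, 3 named miR-467 and 9 named miR-669. The question was what their level was, as a sum for each number and member by member, in cortex with and without forebrain expression of Dnmt3l, and what the mRNA of the host gene did.

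Libraries were made from the medial frontal cortex of C57BL/6J mice at postnatal day 28. In the OE groups, males (OE-M) and females (OE-F) had the genotype Dnmt3l;Emx1-cre, from crossing conditional Dnmt3l knock-in mice with Emx1-cre mice. In the CON groups, males (CON-M) and females (CON-F) had the genotype Emx1-cre, so the Cre driver was present in all 4 groups. Emx1-cre acts in the dorsal forebrain lineage of excitatory neurons and glia, and other cells of the cortex are not recombined by it. Each group had 3 libraries of small RNA and 3 of longer, ribosome-depleted RNA, 12 of each kind. Whether every library stands for its own animal is not in the labels, so p-values refer to the spread between samples only, part of which may be technical. Small RNA columns could be assigned to a group but not to a numbered sample, and small RNA libraries are therefore lettered a to c and longer-RNA libraries numbered 1 to 3.

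MicroRNA hairpins are cut by Drosha and then Dicer, and the mature strand guides Argonaute to messages that pair with its seed, bases 2 to 8. The Sfmbt2 cluster is a run of tandemly repeated hairpins of rodents, and its mature products fall into sets of nearly identical sequences. Sfmbt2 encodes a Polycomb-group protein with MBT repeats, is expressed from the paternal allele in mouse extra-embryonic tissue and is needed for the placenta. DNMT3L has no methyltransferase activity itself, binds and stimulates the de novo DNA methyltransferases, and is needed in oocytes to set up maternal imprints. Because near-identical copies share reads, the sum of a number is a safer quantity than the count of a single letter.

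In the reference annotation (GRCm38.p6), Sfmbt2 lies on chromosome 2 at 10370440 to 10595253, a length of 225 kb. The annotation holds 81 hairpin genes with the 4 numbers, of which 71 lie inside Sfmbt2 and 10 elsewhere. The 71 run from 10466663 to 10518279, a span of 51.6 kb that begins 96.2 kb and ends 147.8 kb after the start of Sfmbt2. They comprise 5 hairpins of miR-297, 23 of miR-466, 14 of miR-467 and 29 of miR-669. The order miR-467, then miR-466, then miR-669 is repeated 11 times, and neighbouring hairpins are a median of 210 bp apart (133 to 2576 bp). Some names cover many copies: miR-467a has 10 hairpins there, miR-466b has 8 and miR-669a has 12. Exon and intron boundaries were not used here.

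**Figure D1:**
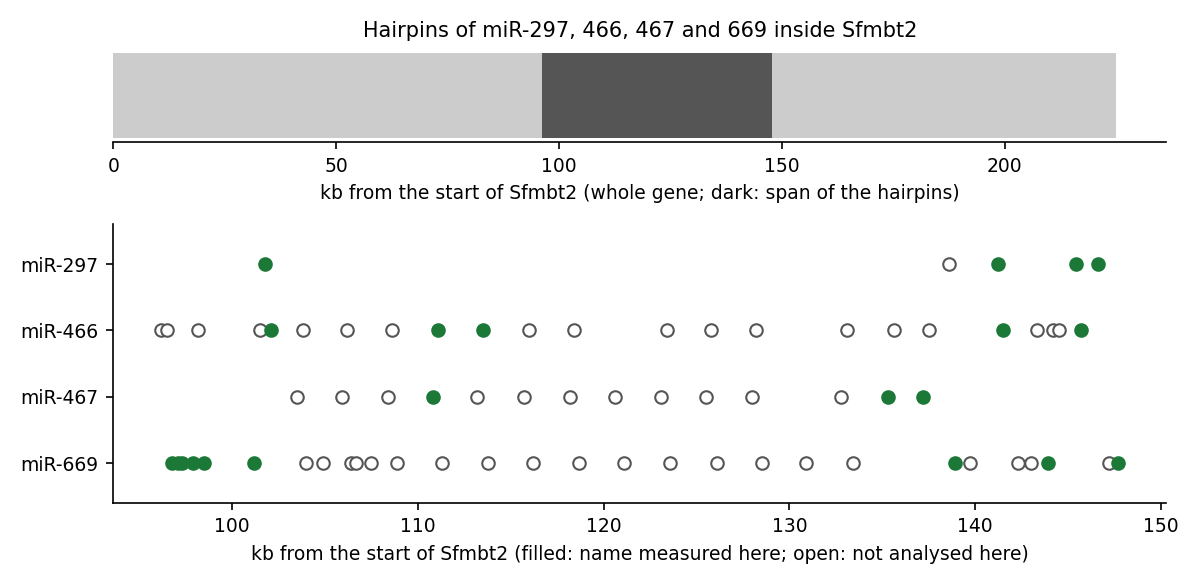
Position of the hairpins of miR-297, miR-466, miR-467 and miR-669 inside Sfmbt2, in kb from the start of the gene. The upper bar is the whole gene with the span of the hairpins dark, from 96.2 to 147.8 kb. Each circle below is a hairpin, filled where its name was measured here (21) and open where its name was not in the small RNA table (50).

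Of the 20 members, 18 share a name with a hairpin inside Sfmbt2. Both arms of miR-466i have a hairpin name only outside it, on chromosome 13. The names of 50 of the 71 hairpins inside Sfmbt2 were not in the small RNA table, miR-467a, miR-466b and miR-669a among them. The sums therefore hold no reads under those names. Apart from the hairpins of miR-467b and miR-466c, the measured names sit near the ends of the run. Hairpins of miR-669f, miR-669e, miR-669b and miR-669d start 96.8 to 97.9 kb from the start of Sfmbt2, with a further hairpin of miR-669d at 101.2 kb. Those of miR-467e, miR-467d, miR-669c, miR-466d and miR-669o start at 135.3, 137.2, 138.9, 141.5 and 143.9 kb. The 2 hairpins of miR-466c start at 111.1 and 113.5 kb.

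RefSeq sequences (GRCm38.p6) are shown to give an impression of microRNAs with these numbers. Of the 20 members, 1 has a mature sequence in the reference used here, miR-466i-3p at chr13:17747552-17747573 on the plus strand. It is shown with 3 other microRNAs of the same numbers from outside the cluster that are not in the small RNA table, in lower case from 5′ to 3′ with the seed in capitals:
mmu-miR-466i-3p: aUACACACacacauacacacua
mmu-miR-467f: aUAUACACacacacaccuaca
mmu-miR-466q: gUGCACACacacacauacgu
mmu-miR-466k: uGUGUGUGuacauguacauguga
The runs of alternating bases, such as the 11 bases of alternating letters in miR-466i-3p and the 12 in miR-467f and miR-466q, are the feature they share. Of 8 reference sequences with these numbers, 6 hold a run of 8 or more alternating bases, against 20 of all 1738 mature microRNAs (1.15%). The seeds of these 4 all differ, and none of the other measured microRNAs with a reference sequence has the seed of miR-466i-3p.

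Small RNA totals were 11397289 to 12378452 counts in OE libraries and 17784876 to 19608955 in CON libraries. Every CON library was deeper than every OE library, so depth and genotype cannot be told apart, and results are also given with all libraries thinned to the smallest total. Between 409 and 481 known microRNAs were above 0 in an OE library, against 527 to 540 in a CON library. The neuronal microRNAs fixed as markers summed to 347357 to 398394 CPM (reads of a microRNA per 1000000 counted reads) in OE and 321084 to 362754 CPM in CON. Of the 3 myeloid markers none was in the table, and the 3 liver markers summed to 434 to 756 CPM in OE and 621 to 740 CPM in CON. The 1 listed marker of astrocytes and oligodendrocytes (of 3) was at 14.3 to 22.1 CPM in OE and 20.2 to 42.1 CPM in CON. The 1 listed endothelial marker (of 2) was at 4643 to 6618 CPM in OE and 5416 to 6593 CPM in CON. The 2 choroid plexus markers summed to 631 to 1162 CPM in OE and 744 to 1163 CPM in CON. The 1 listed red blood cell marker (of 3) was at 86.6 to 107 CPM in OE and 95.6 to 166 CPM in CON. The 2 listed muscle markers (of 3) summed to 44.1 to 86.8 CPM in OE and 56.8 to 99.7 CPM in CON. In the longer-RNA libraries Dnmt3l had 521 to 1179 counts in OE and 0 to 3 counts in CON, which matches the labels. The highest count was in OE-F 1. In bulk tissue, fewer cells of a type and less RNA per cell cannot be told apart.

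The sum of the 6 miR-466 names was lower in OE than in CON cortex. It was 23, 29.8 and 28 CPM in OE-M and 23.9, 25.1 and 23.6 CPM in OE-F, against 37.2, 34.6 and 32.2 CPM in CON-M and 36.7, 32.3 and 40.8 CPM in CON-F. All 6 OE libraries lay below all 6 CON libraries, a separation that depends on 155 counts of miR-466o-3p in CON-M a. For the 2 miR-466 names above 0 in every library, OE-M b (29.8 CPM) lay above CON-M a (29.1 CPM). Among the 679 microRNAs tested singly, 12 (1.77%) had all OE libraries below all CON libraries. On the log2 scale the OE minus CON difference averaged over sexes was -0.48 ± 0.10 (SE; 95% interval -0.72 to -0.24). This missed the threshold in edgeR's quasi-likelihood test (adjusted p = 0.0523 over 667 features, unadjusted p = 0.000819). The exact two-sided permutation test within sex, on the same sum with miR-466o-3p counted and without adjustment, gave p = 0.005, the smallest it can give. Of those 667 features, 7 (1.05%) were called. In edgeR's test the difference was -0.36 ± 0.14 in males (adjusted p = 0.266) and -0.60 ± 0.15 in females (adjusted p = 0.192), and the sexes differed by 0.23 ± 0.20 (adjusted p = 0.932). With libraries thinned to 1 total the difference was -0.47 ± 0.10 (adjusted p = 0.0505). The call is therefore on the edge: it was made under 7 of 12 other settings and in 2 of 12 fits that left out a library, with adjusted p from 0.000542 to 0.427 and a log2 difference between -0.53 and -0.43 throughout.

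The 3 miR-467 names, which hold the largest share of the cluster's reads, showed no difference past the threshold. Their sum was 82.3, 80.3 and 94.3 CPM in OE-M and 72.3, 86.6 and 90.5 CPM in OE-F, against 108, 94.2 and 86.8 CPM in CON-M and 86.7, 84.2 and 73.5 CPM in CON-F. The groups overlapped. The log2 difference was -0.07 ± 0.10 (95% interval -0.29 to 0.15; edgeR adjusted p = 0.686), and the exact permutation test within sex gave p = 0.42. The highest value, 108 CPM in CON-M a, included 666 counts of miR-467b-5p, a name listed at 0 in the other 11 libraries.

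The 9 miR-669 names gave the widest spread between libraries. Their sum was 59.5, 42.7 and 44.7 CPM in OE-M and 26.4, 49.3 and 70.3 CPM in OE-F, against 29.3, 58 and 56.7 CPM in CON-M and 46.9, 54.2 and 39.5 CPM in CON-F. Both the lowest and the highest value were in OE-F. The log2 difference was 0.04 ± 0.25 (95% interval -0.53 to 0.62; edgeR adjusted p = 0.966; exact permutation p = 0.92), and its sign changed between settings.

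The miR-297 names were listed in few libraries. Neither was above 0 in an OE library, and in CON cortex miR-297b-3p had 120 counts in CON-M a alone and miR-297a-5p had 18 counts in CON-M b alone. A count of 0 in an OE library allows a level of up to 0.242 to 0.263 CPM, and in a CON library 0.153 to 0.169 CPM (3 counts of the total, counting error only). These limits hold only where a 0 is a measured 0: in this table a 0 can also mean that a name was not listed for a library, since several members stood at 0 beside replicates with more than 100 counts. Both names fell under the filter on low counts and were not tested.

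The 20 members together made up 159 ± 20.6 CPM in OE and 173 ± 11.6 CPM in CON (mean ± SD, n = 6 libraries each). The range was 123 to 184 CPM in OE and 154 to 188 CPM in CON, and the groups overlapped. Restricted to the 8 members above 0 in all 12 libraries, the sums were 143 CPM in OE and 141 CPM in CON.

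**Figure D2:**
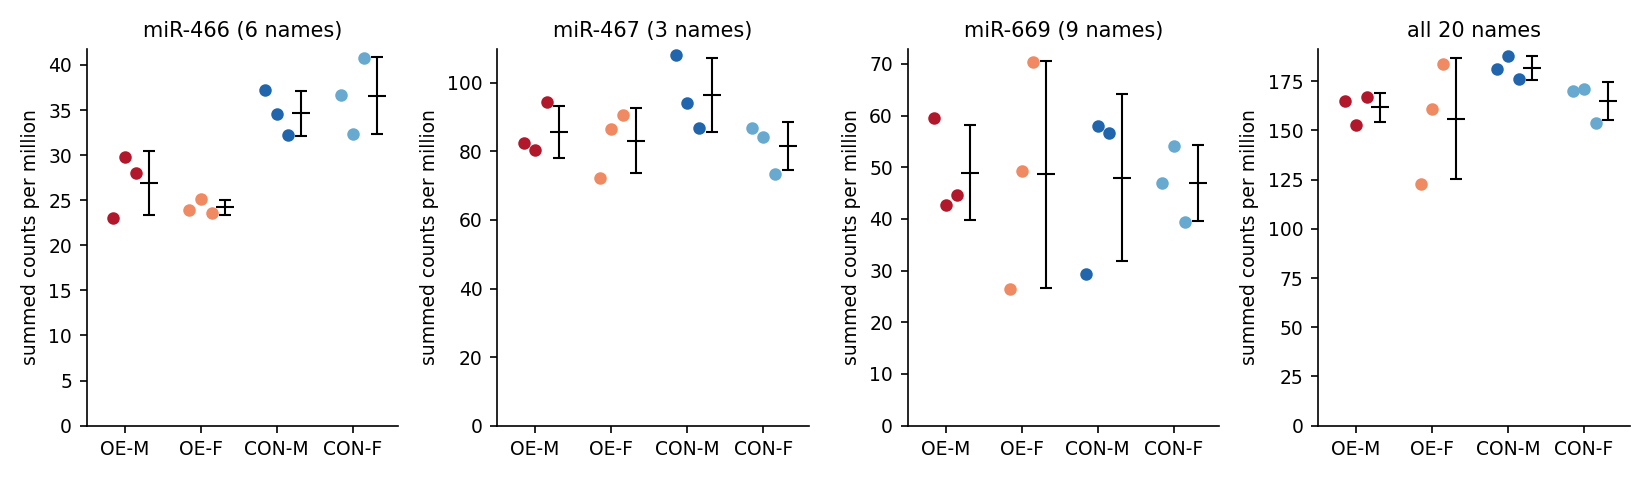
Summed CPM of the miR-466, miR-467 and miR-669 names and of all 20 members, with each point a small RNA library and the bar beside it the mean ± SD of 3 libraries. The miR-466 points of OE-M and OE-F (23 to 29.8) all lie below those of CON-M and CON-F (32.2 to 40.8), and in the other panels the genotypes overlap. The miR-466 sum includes miR-466o-3p, which was listed above 0 in CON-M a and CON-F c only, and the separation depends on its counts in CON-M a.

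Within the miR-466 names, the largest difference was that of miR-466d-3p. It had 16, 18 and 13 counts in OE-M and 24, 21 and 18 in OE-F, against 301, 339 and 333 in CON-M and 334, 325 and 308 in CON-F. Scaled to library totals these are 1.1 to 2.01 CPM in OE (mean 1.56 ± 0.328 SD) and 15.4 to 17.9 CPM in CON (mean 17.1 ± 0.966 SD, n = 6 each). The lowest CON library lay far above the highest OE library, and the spread within either genotype was small beside the gap. Mean CPM was 11-fold higher in CON, and the fitted log2 difference was -3.47 ± 0.15 (edgeR adjusted p = 2.72e-07). By p it was first of the 679 microRNAs tested. Whether OE and CON libraries were assigned to names with the same annotation is not given here, so the fold is that of the deposited counts under this name. The difference was -3.67 ± 0.22 in males (edgeR adjusted p = 5.48e-06) and -3.27 ± 0.21 in females (edgeR adjusted p = 1.36e-05), beside 4 of 679 microRNAs (0.589%) called in males and 1 (0.147%), itself, in females. The male minus female difference of -0.39 ± 0.28 did not pass the threshold (edgeR adjusted p = 0.864). It was called under each of the 12 other settings and without each library in turn, with log2 differences from -3.54 to -2.83, and with thinned libraries it was -3.48 ± 0.16.

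The other abundant miR-466 name, miR-466c-3p, was higher in OE. Its levels were 20.8, 28.3 and 26.8 CPM in OE-M and 21.5, 23.3 and 20.8 CPM in OE-F, against 13.7, 16.7 and 14.5 CPM in CON-M and 18.6, 15.4 and 15.1 CPM in CON-F. All 6 OE libraries were above all 6 CON libraries, as in 4 of 679 microRNAs tested (0.589%), while all 6 were below in 12 (1.77%), miR-466d-3p among them, 16 (2.36%) in either direction. The log2 difference was 0.59 ± 0.12 (edgeR adjusted p = 0.0469). That call is weak: it was kept in only 2 of the 12 fits that left out a library (adjusted p from 0.0108 to 0.118), was lost with the replicate number as a block (adjusted p = 0.0946) and with no filter on low counts (adjusted p = 0.4), and was made under the 10 other settings. In females alone it was 0.42 ± 0.17 (edgeR adjusted p = 0.472) and in males 0.76 ± 0.17 (edgeR adjusted p = 0.0707).

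These are the only members called, 1 higher and 1 lower, of the 15 that could be tested. Over all 679 microRNAs tested, 12 (1.77%) were called, 4 higher (0.589%) and 8 lower (1.18%). The members' median log2 difference was 0.27, with 9 above 0 and 6 below, beside a median of -0.11 over all microRNAs tested. With TMM or RLE scaling the members split 8 above and 7 below, with medians of 0.21 and 0.22. At an unadjusted p below 0.05 there were 3 members and 167 microRNAs in all.

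The opposite movement of miR-466c-3p and miR-466d-3p can be read as a share. Of the reads counted for both names, miR-466d-3p took 5.86%, 5.29% and 3.94% in OE-M and 8.57%, 7.12% and 7.03% in OE-F, against 52.8%, 51.7% and 54.7% in CON-M and 49.1%, 52.2% and 53.4% in CON-F. The exact 95% binomial intervals, which cover counting error only, reached at most 12.5% in an OE library and at least 45.3% in a CON library. The joint level of both names was 22.1 to 29.8 CPM in OE and 29.1 to 36.5 CPM in CON, and here OE-M b lay above CON-M a. The separation of the full miR-466 sum thus depended on miR-466o-3p, which had 155 counts in CON-M a and 145 in CON-F c and was listed at 0 in the other 10 libraries. How the authors' counting placed a read that fits both names is not given here, and no mature sequence of either was used here, so each level on its own is uncertain.

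**Figure D3:**
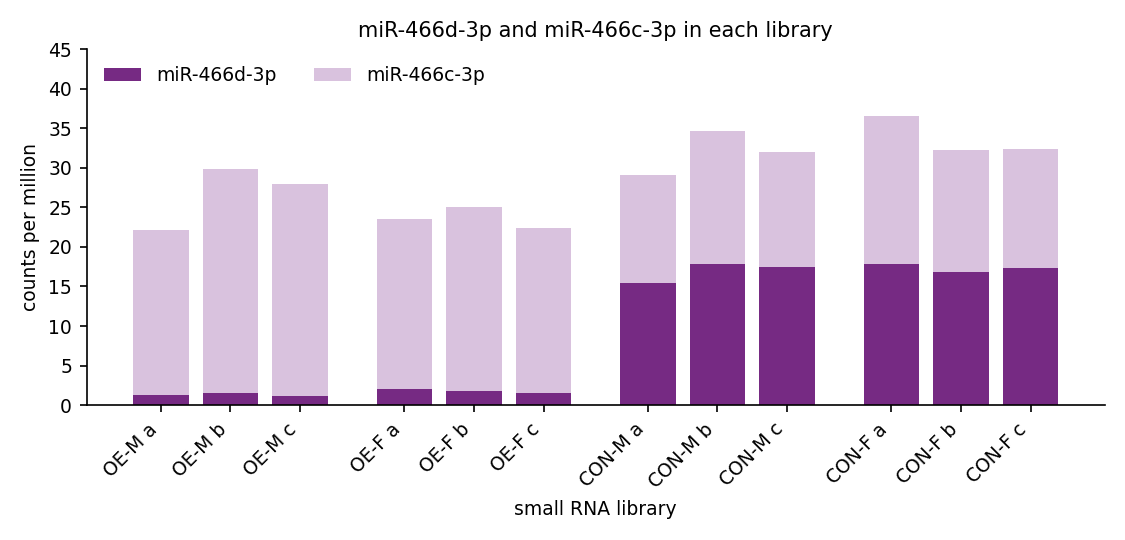
CPM of miR-466d-3p (dark) and miR-466c-3p (light), stacked, in each of the 12 small RNA libraries. The dark part is 1.1 to 2.01 in the OE libraries and 15.4 to 17.9 in the CON libraries, while the light part is 20.8 to 28.3 in OE and 13.7 to 18.6 in CON.

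Among the miR-467 names, miR-467e-5p was the most abundant member, at rank 207 of 690 known microRNAs by mean CPM. It measured 67.6, 66.2 and 79.5 CPM in OE-M and 61.2, 73.1 and 73.8 CPM in OE-F, against 62.5, 79.9 and 71.3 CPM in CON-M and 69.4, 70.2 and 61.6 CPM in CON-F. The genotypes overlapped almost fully. Its log2 difference was 0.02 ± 0.10 (95% interval -0.20 to 0.25; edgeR adjusted p = 0.93). A second miR-467 name, miR-467d-3p, averaged 14.1 ± 1.85 CPM in OE and 14.2 ± 2.07 CPM in CON (SD, n = 6 each), a log2 difference of -0.00 ± 0.15 (95% interval -0.34 to 0.34; edgeR adjusted p = 1). Signs this close to 0 changed between settings.

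Of the miR-669 names, miR-669c-5p had the highest mean over all 12 libraries, a mean that counts the listed 0s of miR-669o-3p; in the 5 CON libraries that list it, miR-669o-3p was higher. MiR-669c-5p had 17, 18.5 and 15.9 CPM in OE-M and 9.64, 17.8 and 21.6 CPM in OE-F, against 11.1, 13.2 and 13.5 CPM in CON-M and 11, 11.9 and 9.45 CPM in CON-F. All OE libraries except OE-F a were above all CON libraries. The log2 difference was 0.52 ± 0.19 and did not pass the threshold (edgeR adjusted p = 0.159, unadjusted p = 0.0197). Without OE-F a it was 0.65 ± 0.11 and was called (edgeR adjusted p = 0.00638), as were 130 microRNAs in that fit. DESeq2, which called 73 microRNAs, also called it (adjusted p = 0.0289).

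From the other end of the run, miR-669d-5p averaged 11.6 ± 2.32 CPM in OE and 9.6 ± 1.42 CPM in CON (SD, n = 6 each), a log2 difference of 0.27 ± 0.18 (edgeR adjusted p = 0.37). Lower still, miR-669b-5p averaged 3.76 CPM in OE and 2.94 CPM in CON (0.36 ± 0.27, edgeR adjusted p = 0.434). From the same hairpin, miR-669f-3p averaged 3.25 CPM in OE and 1.91 CPM in CON, and miR-669f-5p 2.53 CPM in OE and 1.59 CPM in CON. Both arms were listed at 0 in CON-F c, and the 5p arm also in OE-M b. Of the same group of hairpins, miR-669l-5p averaged 2.33 CPM in OE and 1 CPM in CON, with 0 in CON-M b (1.20 ± 0.80, edgeR adjusted p = 0.371). None of these 5 passed the threshold, and each had the higher mean in OE.

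Unlike them, miR-669o-3p was either at 203 counts or more or at 0. It had 203 counts in OE-M a and 237 in OE-F c and was listed at 0 in the other 4 OE libraries, against 409 and 402 in CON-M b and CON-M c, 319, 429 and 274 in CON-F, and 0 in CON-M a. A level of 15.4 to 22.2 CPM in 7 libraries beside 0 in 5 leaves the fitted log2 difference without precision (-1.39 ± 1.69; edgeR adjusted p = 0.644). When a listed 0 was treated as missing, its log2 difference was -0.09.

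Summed over the 4 miR-669 members above 0 everywhere (miR-669b, miR-669c, miR-669d and miR-669e), the level was 34.7, 36.1 and 34 CPM in OE-M and 19.7, 35.8 and 41.2 CPM in OE-F, against 22.6, 30.1 and 27.8 CPM in CON-M and 24.2, 25.7 and 21.6 CPM in CON-F. All OE libraries but OE-F a were above all CON libraries, and OE-F a was the lowest of the 12. The means were 33.6 CPM in OE and 25.3 CPM in CON. This sum leaves out the 0s of miR-669o-3p that dominate the spread of the full miR-669 sum, and as its members were picked by their values it was not tested.

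**Figure D4:**
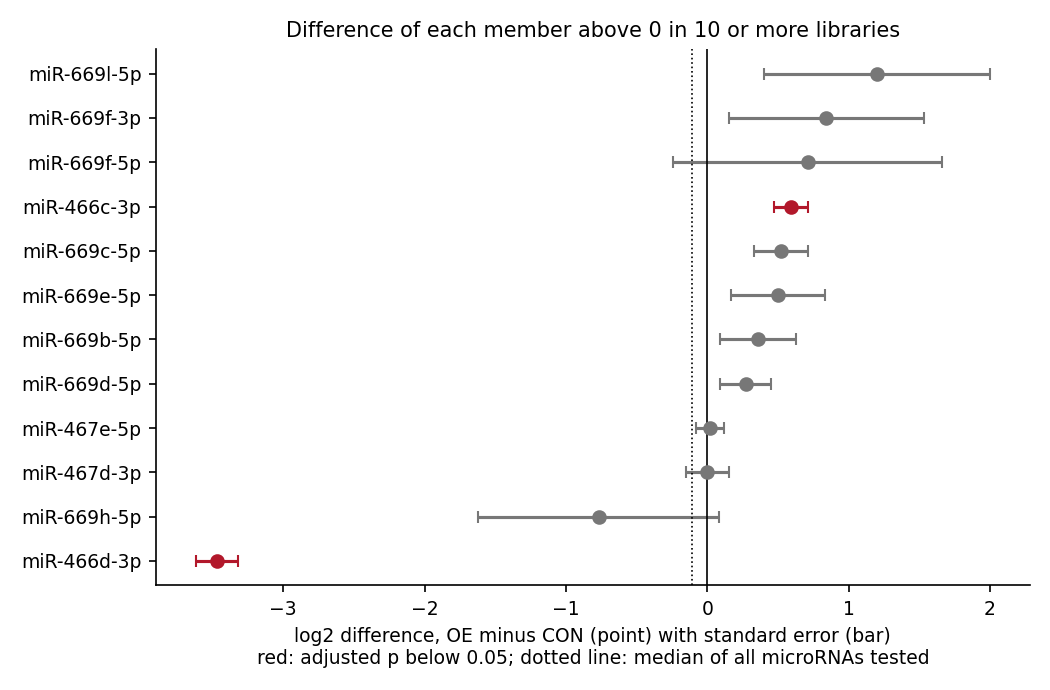
Log2 difference, OE minus CON averaged over sexes, of the 12 members above 0 in 10 or more libraries, with standard errors; red marks an adjusted p below 0.05 and the dotted line is the median of all microRNAs tested (-0.11). The miR-466d-3p point at -3.47 stands apart on the left, miR-466c-3p lies at 0.59, and the miR-467 members lie at 0.

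The remaining members were rare. MiR-669e-5p averaged 1.51 CPM in OE and 1.09 CPM in CON, and miR-669h-5p 0.938 CPM in OE and 1.35 CPM in CON with 0 in OE-M a and OE-M b. Both arms of miR-466i and miR-466l-3p never exceeded 1.22 CPM in any library, and miR-466i-3p, whose sequence is printed above, had 3 and 14 counts in OE-F a and OE-F c against 3, 3 and 2 counts in CON-M a, CON-F a and CON-F c. No difference was detectable at counts this low.

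Several members were at 0 in some libraries although replicates of the same group held many counts. Of 10 members that reached 100 counts in some library, 4 (40%) were at 0 in another library of a group that reached 100, against 20 of 298 (6.71%) other known microRNAs. CON-M a stood out in both directions: it alone listed miR-467b-5p and miR-297b-3p, it listed miR-669o-3p at 0, and it was the lowest CON-M library for all 8 members present everywhere. Leaving it out changed the miR-466 log2 difference within the range given above and turned the miR-669 difference to -0.09.

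The libraries' overall level of the cluster was most like that of miR-187-3p (Pearson r = 0.87), miR-365-2-3p and miR-365-1-3p (r = 0.86 each), miR-325-3p (r = 0.84) and miR-7a-5p (r = 0.82). This likeness is of log2(CPM + 1) with the members' sum over 12 libraries, among 265 known microRNAs at 10 CPM or more, and is given as a description of libraries that share depth and genotype.

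The host gene Sfmbt2 (ENSMUSG00000061186, chromosome 2, 10370510 to 10595253 in the deposited table, plus strand) was expressed at a low level. Its mRNA measured 8.99, 9.86 and 12.7 CPM in OE-M and 7.68, 13 and 12 CPM in OE-F, against 8.13, 7.82 and 8.06 CPM in CON-M and 9.04, 8.77 and 8.25 CPM in CON-F. Among OE libraries 4 were above every CON library, while OE-F 1 was the lowest of all 12. The means were 10.7 ± 2.18 CPM in OE and 8.35 ± 0.465 CPM in CON (SD, n = 6 each), and per length 2.07 and 2.44 FPKM in OE-M and OE-F against 1.58 and 1.68 FPKM in CON-M and CON-F. The log2 difference was 0.36 ± 0.13 (edgeR adjusted p = 0.0337), and the exact two-sided permutation test within sex gave p = 0.045.

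That call reads against a background in which 8136 of 15786 genes (51.5%) were called, 25.2% higher and 26.4% lower. It was lost with scaling to library totals (0.27, edgeR adjusted p = 0.0987) and in 8 of 12 fits that left out a library (adjusted p up to 0.0945), and without OE-F 1 it was 0.44 (edgeR adjusted p = 0.0011). The male difference of 0.40 ± 0.18 (edgeR adjusted p = 0.0973) and the female difference of 0.32 ± 0.18 (edgeR adjusted p = 0.23) did not pass. Alb, a liver transcript, was at 32.6 to 47 CPM in CON-M 3, CON-F 1 and CON-F 2 and at most 0.493 CPM in the other 9 libraries. Without those 3 CON libraries the Sfmbt2 difference was 0.38 ± 0.19 and not called (edgeR adjusted p = 0.159). For longer RNA as well, every CON library was deeper than every OE library. Depth and genotype therefore cannot be told apart for any gene given here.

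Some markers of cortical cell types also differed between genotypes, here per length in FPKM. The markers of the labelled tissue given here were above 0 in every library. Gad2, of inhibitory neurons, was at 16 to 27 in OE and 29.6 to 40.9 in CON, and Slc1a2, the glutamate transporter of astrocytes, at 557 to 950 in OE and 497 to 539 in CON, both without overlap. The others given here overlapped. The share of all genes that separate without overlap was not computed, and 51.5% of genes tested were called, so this is no result about these markers. Medians were 12.6 in OE and 46.2 in CON for Neurod6 of excitatory neurons, 2667 in OE and 1339 in CON for Mbp of myelin, 63 in OE and 95.6 in CON for Gad1, and 515 in OE and 419 in CON for Slc17a7. For Tbr1 they were 30 in OE and 45.3 in CON. Of markers of other tissue, Ttr had medians of 163 in OE and 229 in CON, Hbb-bs 126 in OE and 303 in CON, and Drd2 11.5 in OE and 15 in CON. The part of these differences in that of Sfmbt2 was not tested. Small and longer RNA libraries could not be matched to each other, so no relation of Sfmbt2 mRNA to the cluster across samples was computed.

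**Figure D5:**
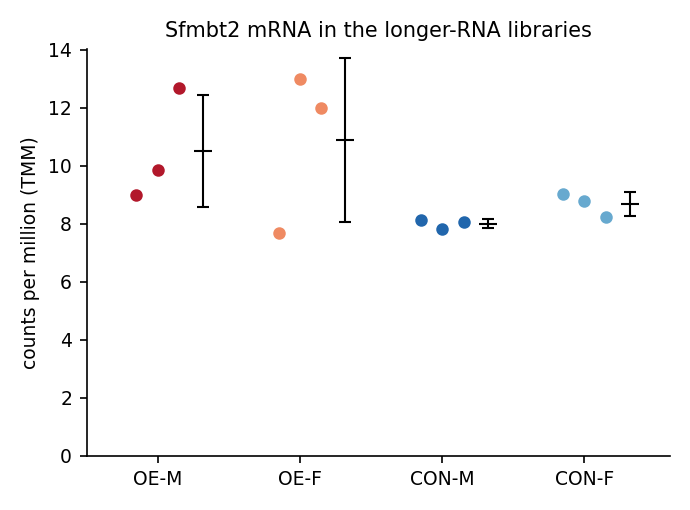
Sfmbt2 mRNA in CPM (TMM) in each longer-RNA library, with the mean ± SD of 3 libraries beside each group. OE libraries spread from 7.68 to 13 and CON libraries from 7.82 to 9.04.

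The table lists 7 transcripts of Sfmbt2, of which 4 had counts. Only ENSMUST00000116594, of 7821 bases, was above 0 in all 12 libraries, with 95.9 to 224.18 expected counts in OE and 54.88 to 241.68 in CON. The nearly equally long ENSMUST00000041105 switched between 0 and 156.31 expected counts within groups, so the split between transcripts is uncertain. Circular RNAs of the gene were listed at 4 locations, each above 0 in a single library. The antisense transcript Gm13261, on the minus strand at 10339283 to 10374041 and thus over the start of Sfmbt2, was listed at 0 in all 12 libraries.

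Among 8 tested neighbours within 1 Mb of Sfmbt2 (of 19 listed), 3 rose and 1 fell, beside 51.5% called over all genes. Itih5, an extracellular matrix protein that binds hyaluronan, averaged 72.5 ± 20.9 CPM in OE and 49.6 ± 2.29 CPM in CON (SD, n = 6 each; log2 difference 0.52 ± 0.12, edgeR adjusted p = 0.00405). Its relative Itih2 rose by 0.47 ± 0.17 (edgeR adjusted p = 0.0343), and Prkcq, a protein kinase C, by 0.28 ± 0.11 (edgeR adjusted p = 0.0393). Atp5c1, a subunit of the mitochondrial ATP synthase, averaged 51.4 ± 10.3 CPM in OE and 80.8 ± 5.61 CPM in CON (-0.65 ± 0.11, edgeR adjusted p = 0.000637). OE-F 1 departed from the other OE libraries in both Itih5 (38.2 CPM, below every CON library) and Atp5c1 (71.1 CPM). It had the highest Dnmt3l level, 45.7 CPM against 20.6 to 27 CPM in the other OE libraries. Pfkfb3 and Kin, at -0.37 ± 0.15 (edgeR adjusted p = 0.0521) and -0.19 ± 0.11 (edgeR adjusted p = 0.154), did not pass. The median of the 8 was -0.03, beside 0.02 over all genes.

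Of 27 tested genes of the microRNA pathway, 3 rose and 7 fell, with a median log2 difference of 0.01. Over all genes tested, 51.5% were called. Those that rose were Zswim8, a ubiquitin ligase receptor of target-directed microRNA decay (0.27 ± 0.06, edgeR adjusted p = 0.00163), Tnrc6a, the scaffold that links Argonaute to deadenylation (0.20 ± 0.06, edgeR adjusted p = 0.0084), and Ddx17, a helicase of the Drosha complex (0.19 ± 0.07, edgeR adjusted p = 0.0259). The 3 with the smallest p among those that fell were Ran, the GTPase that drives nuclear export of hairpins by Exportin 5, Ddx5, the helicase paired with Ddx17, and Khsrp, which binds the loop of some precursors. Ran averaged 26.9 ± 9.96 CPM in OE and 48.7 ± 3.16 CPM in CON (SD, n = 6 each; log2 difference -0.87 ± 0.15, edgeR adjusted p = 0.000748). In OE-F 1 it was at 46.6 CPM, within the CON range of 45.9 to 53.8 CPM, and in the other OE libraries at 19.7 to 27 CPM. Ddx5 was at -0.27 ± 0.06 (edgeR adjusted p = 0.00263) and Khsrp at -0.28 ± 0.08 (edgeR adjusted p = 0.00854).

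Of 13 relatives and partners of Sfmbt2, all tested, 2 rose and 3 fell; these 5 are named because they were called. Over all genes tested, 25.2% were called higher and 26.4% lower, so a count of 5 is no result about this list. The MBT protein L3mbtl1 averaged 24.1 ± 3.95 CPM in OE and 14.9 ± 2.49 CPM in CON (SD, n = 6 each; 0.68 ± 0.11, edgeR adjusted p = 0.00058), and Phc1, a Polycomb subunit, differed by 0.31 ± 0.08 (edgeR adjusted p = 0.0058). The closest relative, Sfmbt1, averaged 31 ± 6.43 CPM in OE and 43.6 ± 2.2 CPM in CON (-0.49 ± 0.10, edgeR adjusted p = 0.00199), opposite in direction to Sfmbt2. L3mbtl2 was at -0.44 ± 0.09 (edgeR adjusted p = 0.00133), and Yy1, a DNA-binding protein listed here as a partner of Sfmbt2, at -0.35 ± 0.11 (edgeR adjusted p = 0.0172). OE-F 1 lay within the CON range for Sfmbt1 (43.8 CPM, CON 41.4 to 47.8) and Yy1 (73.7 CPM, CON 61.5 to 77.4).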

How the data were processed

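Small RNA and ribosome-depleted longer RNA of medial frontal cortex were measured in 12 libraries each, 3 per group. For microRNAs the authors deposited raw read counts, and for transcripts expected counts and FPKM, per the file headers; circular RNA values were deposited as a scaled junction score. Per the submitters' processing notes, the tools included HISAT2 2.0.1, HTSeq 0.6.1, cutadapt 1.9.1, bedtools 2.17.0 and DESeq2, and the build was GRCm38; their roles, the microRNA caller and the use of strand are not given in the sources used here.

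The members, lists and tests were chosen with earlier results of these data known. Members were found by number, and their counts were scaled to library totals over the whole table (CPM). MicroRNAs with 1 count in at least 3 libraries (679; 15 of 20 members) were tested with edgeR 4.0.16 (quasi-likelihood, R 4.3.3) with 4 group means and 8 residual degrees of freedom, two-sided, with Benjamini-Hochberg adjustment and a threshold of 0.05; sums replaced the members in a second table. Expected counts were summed per gene, rounded and tested the same way with TMM (0.5 FPKM in 3 libraries); transcripts with no gene ID held 0.533% to 0.601% of counts and were left out. Library totals were 22144970 to 26842726 in OE and 27074837 to 32100277 in CON for longer RNA. Here too every CON library was deeper than every OE library, and no fit with thinned libraries was run for longer RNA. SE is the log2 difference over the root of F. The 12 members highest by mean CPM and all called members were named, as were the 3 pathway genes and neighbours with the smallest p in each direction. The fits were also run on simulated data with less spread than was estimated here, so that run cannot show how they behave on these data. Alternatives were other scalings, filters, thinning, DESeq2 1.42.0, limma 3.58.1, a replicate block and leaving out libraries; leaving out CON libraries with Alb above 1 CPM was chosen after seeing the data. A marker of the labelled tissue is not reported here.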

Additional observations from a re-analysis of the deposited data

How the results depend on the processing

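The call of miR-466d-3p and its direction held under all 12 other settings and without each library in turn. The miR-466 sum stayed lower throughout and was called with TMM (log2 difference -0.53), known microRNAs only (-0.48), DESeq2 (-0.51), limma with pseudocounts of 1 (-0.46) and 0.1 (-0.48), a minimum of 10 counts (-0.48) and listed 0s as missing (-0.48); leaving out libraries gave -0.52 to -0.43. The miR-669 sum averaged over sexes reversed with TMM (-0.03), RLE (-0.00) and DESeq2 (-0.00), and ran from -0.14 to 0.19 without a library. In males it reversed with TMM (-0.03; -0.23 to 0.19 without a library). In females it reversed with TMM (-0.03), RLE and DESeq2 (-0.02 each), limma with either pseudocount and listed 0s as missing (-0.04 each) and the replicate block (-0.01; -0.31 to 0.35 without a library). Its male minus female difference reversed with RLE and DESeq2 (0.04 each), upper quartile (0.00), thinning (0.02), and limma, listed 0s as missing and the replicate block (0.12 each; -0.32 to 0.34 without a library). The miR-467 sum in females reversed with TMM (-0.02), RLE and DESeq2 (-0.01 each) and thinning (-0.00; -0.04 to 0.12 without a library). Near 0, miR-467d-3p reversed with upper quartile (0.04; -0.08 to 0.07 without a library) and miR-467e-5p with TMM (-0.03), RLE and DESeq2 (-0.02 each; -0.02 to 0.07 without a library).

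Sfmbt2 lost its call with library totals (0.27) and without the 3 CON libraries with Alb (0.38), and ran from 0.28 to 0.44 without a library. Its male minus female difference reversed with library totals (-0.02), limma on FPKM with pseudocounts of 0.1 (-0.12) and 1 (-0.09), and without those CON libraries (-0.01; -0.14 to 0.22 without a library). The cause of these changes was not tested.

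MicroRNAs called numbered 12 as reported, 20 with TMM, 19 with upper quartile, 25 with known microRNAs only, 73 with DESeq2, 45 and 56 with limma at pseudocounts of 1 and 0.1, 70 with no filter, 23 with thinning and 6 with the replicate block. They ran from 5 (without CON-M b) to 130 (without OE-F a) when a library was left out. Members called higher were 2 with DESeq2, 0 with no filter, 0 with the replicate block and 0 to 2 without a library; members called lower were 3 with no filter and 1 to 2 without a library.

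Whether replicate numbers pair the libraries is not known, and pairs with different numbers were not compared. Same-numbered libraries deviated from their group means with correlations of -0.152 to 0.264 over 18 pairs of small RNA columns, 1 of them over 0.1, and of -0.159 to 0.123 over 18 pairs of longer-RNA libraries, 3 of them over 0.1. With the replicate block the miR-466 difference was -0.48 (edgeR adjusted p = 0.133), the miR-467 difference -0.07, the miR-669 difference 0.05 and the Sfmbt2 difference 0.34 (edgeR adjusted p = 0.0423). The lower depth of OE libraries limits members under about 1 CPM. The 5 members not tested were above 0 in fewer than 3 libraries, some of them with more than 100 counts there.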
